A study of Homo sapiens with 15 samples.

Results

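The genes described here were the chaperones of the endoplasmic reticulum (ER), the genes of ER-associated degradation (ERAD), and the sensors and transcription factor of the unfolded protein response (UPR). They were taken by name from a list of 32 genes, through the RefSeq accession of each array probe. Of these, 31 were measured among 26825 genes and transcripts tested. ERO1A had no probe with a RefSeq accession and was not analysed here.

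The ER folds secreted and membrane proteins with the help of Hsp70- and Hsp90-type chaperones, lectin chaperones and enzymes that form disulfide bonds. Misfolded proteins are moved back to the cytosol and degraded by ERAD. When unfolded proteins build up, 3 sensors signal: ATF6, which is cleaved to an active transcription factor; IRE1, encoded by ERN1, which splices the XBP1 mRNA so that it encodes an active factor; and PERK, which phosphorylates eIF2α and raises ATF4. Cleaved ATF6 and spliced XBP1 are known to raise chaperone and ERAD genes, and XBP1 is itself a target of ATF6. ATF4 is also raised by other kinases that respond to lack of amino acids, heme or mitochondrial function. The arrays measured mRNA abundance, and neither the cleavage of ATF6 nor the splicing of XBP1 was measured.

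A2058, an established human melanoma cell line, was treated for 8 hours in medium with 10% serum. The 5 groups of 3 replicates were NP (3 μM), its solvent DMSO, metformin (MET, 5000 μM), phenformin (PHEN, 50 μM), and water (W), the solvent of both biguanides. NP is neopetasin in the title of the series, while the methods of the study describe petasin at the same dose and time, so the name NP of the labels is kept. The doses differed between compounds, and 1 dose and 1 time of 1 line in bulk culture were studied. Fewer cells with an mRNA and less of it per cell cannot be told apart in such samples.

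Each sample was hybridized to 1 single-dye Agilent array. Values are log2 of the processed signal minus the log2 of the 75th percentile of the array, so a value of 0 is a signal at that percentile, and values of different genes, which come from different probes, are not compared. Between 25803 and 45042 of 58201 probes were well above background on an array. The detection limit of NP replicate 2 was outside the accepted range of the Feature Extraction software, and that of every other array was inside it. DMSO and NP lay on 2 slides, and W, MET and PHEN on 2 others, so that vehicle and slides cannot be told apart across these sets. Within each set, replicates 1 and 2 of every group lay on 1 slide and replicate 3 on the other. A deviation of replicate 3 therefore cannot be told apart from a difference between slides. The number of arrays limits the precision. Of 10 melanoma markers, 9 had a probe, and 8 of these were well above background on all 15 arrays, among them SOX10, MITF and PMEL. Of 12 markers of other cell types, 11 had a probe. The epithelial markers EPCAM and CDH1 and the fibroblast marker COL3A1 were above background on no array, but 6, among them COL1A1, VWF and CD79A, were above background on all arrays.

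ATF6 and XBP1 act through short promoter elements. To show the elements that link the chaperones to these factors, RefSeq promoters (GRCh38.p14, 250 bases before the annotated start) were searched on both strands for the ER stress element ERSE (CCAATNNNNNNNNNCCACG), ERSE-II (ATTGGNCCACG), the UPR element UPRE (TGACGTGG), and a sequence of the amino acid response type (AARE, TGATGCAA), which ATF4 is known to bind. The first 2 share the letters CCACG, which the reverse of UPRE also contains. Promoters were found for 29 of the 32 genes. ERSE was in 8 of them (HSPA5, HSP90B1, CRELD2, CALR, CANX, PDIA6, ERO1B and XBP1; 27.6%) and in 25 of 27305 genes of the table (0.0916%). ERSE-II was in HYOU1, SDF2L1 and HERPUD1 (10.3%) and in 18 genes of the table (0.0659%). UPRE was in HYOU1 alone of the 29, against 0.78% of the table, and AARE was in HERPUD1 alone, against 0.967%. The list was built of known targets of these factors, so these shares describe how it was chosen. The 200 bases before the start are printed for 4 genes whose values are compared below, the chaperones HSPA5 and HSP90B1 and the genes XBP1 and HERPUD1, with the matches in capitals.
HSPA5 (GRCh38.p14, chr9:125241344-125241543, minus strand): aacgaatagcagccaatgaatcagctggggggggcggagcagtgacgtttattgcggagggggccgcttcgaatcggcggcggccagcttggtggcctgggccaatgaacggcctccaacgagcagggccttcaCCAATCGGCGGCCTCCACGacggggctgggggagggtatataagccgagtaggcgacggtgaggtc
HSP90B1 (GRCh38.p14, chr12:103930210-103930409, plus strand): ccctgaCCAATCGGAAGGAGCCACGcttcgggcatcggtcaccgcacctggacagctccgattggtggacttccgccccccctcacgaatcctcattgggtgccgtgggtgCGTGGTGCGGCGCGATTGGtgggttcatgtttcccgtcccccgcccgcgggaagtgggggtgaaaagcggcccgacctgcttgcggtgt
XBP1 (GRCh38.p14, chr22:28800570-28800769, minus strand): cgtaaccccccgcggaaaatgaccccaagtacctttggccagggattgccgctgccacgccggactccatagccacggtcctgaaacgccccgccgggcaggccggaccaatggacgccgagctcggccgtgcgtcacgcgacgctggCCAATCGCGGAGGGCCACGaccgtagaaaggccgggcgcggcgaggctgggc
HERPUD1 (GRCh38.p14, chr16:56931942-56932141, plus strand): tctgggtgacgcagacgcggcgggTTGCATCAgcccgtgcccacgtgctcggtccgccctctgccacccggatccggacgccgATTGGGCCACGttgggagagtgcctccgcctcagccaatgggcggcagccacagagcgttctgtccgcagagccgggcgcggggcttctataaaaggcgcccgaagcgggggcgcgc
The ERSE began 66 bases before the start in HSPA5 and 52 bases before it in XBP1. HSP90B1 held a pair, the first 194 bases before the start. In HERPUD1 the capitals nearer the start, from 117 bases before it, are ERSE-II, and the other capitals are the reverse of the AARE letters. XBP1 has a second annotated start in the table, and its 200 bases held none of the 4 sequences.

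XBP1 and HERPUD1 were the listed genes whose mRNA was higher than vehicle with every compound and in each of the 9 pairs of arrays. DERL1 and the chaperone DNAJB11 were lower in each of these pairs, with smaller log2 fold changes. The MET and PHEN pairs share the W arrays, so the 9 pairs are not independent. The share of all genes with the same sign in all 9 was not counted. After NP, XBP1 was 0.65 higher on the log2 scale and HERPUD1 0.58 higher. After PHEN the differences were 0.44 and 0.43, and after MET 0.31 and 0.26. Against them, HSPA5 differed by -0.10, -0.064 and -0.24 after NP, PHEN and MET, and HSP90B1 by -0.036, -0.017 and -0.015. After MET the value of HSPA5 was close in size to that of HERPUD1, with the opposite sign.

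None of the 31 genes passed the test in any of the 3 comparisons, which was limma's adjusted p of at most 0.05 with a change of at least 1.5-fold. Over all genes 0.0373% passed after NP, 0% after MET and 0.0261% after PHEN. At an unadjusted limma p of at most 0.05, 2 members were higher after NP (XBP1 and HERPUD1; 2.78% of all genes were), 1 after MET (XBP1; 1.28%) and 2 after PHEN (XBP1 and HERPUD1; 0.76%). None was lower at that level, against 2.01%, 1.25% and 1.66% of all genes. Same-numbered arrays deviated together within a set of slides, and with the replicate number as a block within each set the counts over all genes at that level were larger. After NP, XBP1 and HERPUD1 were then higher (5.61% of all genes) and CRELD2, DERL1 and SDF2L1 lower (6.18%). After MET, XBP1 was higher (4.33%) and DERL1, DNAJC3, HSPA5 and SEL1L were lower (5.52%). After PHEN, XBP1, HERPUD1 and EDEM1 were higher (2.68%) and no member was lower (4.54%). With that block, limma's adjusted p of the members lower at this level was between 0.21 and 0.49. The median log2 fold change of the members was -0.045 after NP, -0.023 after MET and -0.0072 after PHEN, and that of all genes was -0.016, -0.0027 and -0.045.

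The intervals given here come from the fit with the replicate number as a block over all arrays, and their width depends on that block. With the block within each set of slides, the SE after NP was 0.060 in place of 0.17 for HSP90B1. For DERL3 it was 0.19 in place of 0.18. The 95% interval of the change lay wholly within 1.5-fold either way for 25 of the 31 members after NP, 27 after MET and 26 after PHEN. The same held for 53.3%, 52.8% and 54.9% of all genes.

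**Figure D1:**
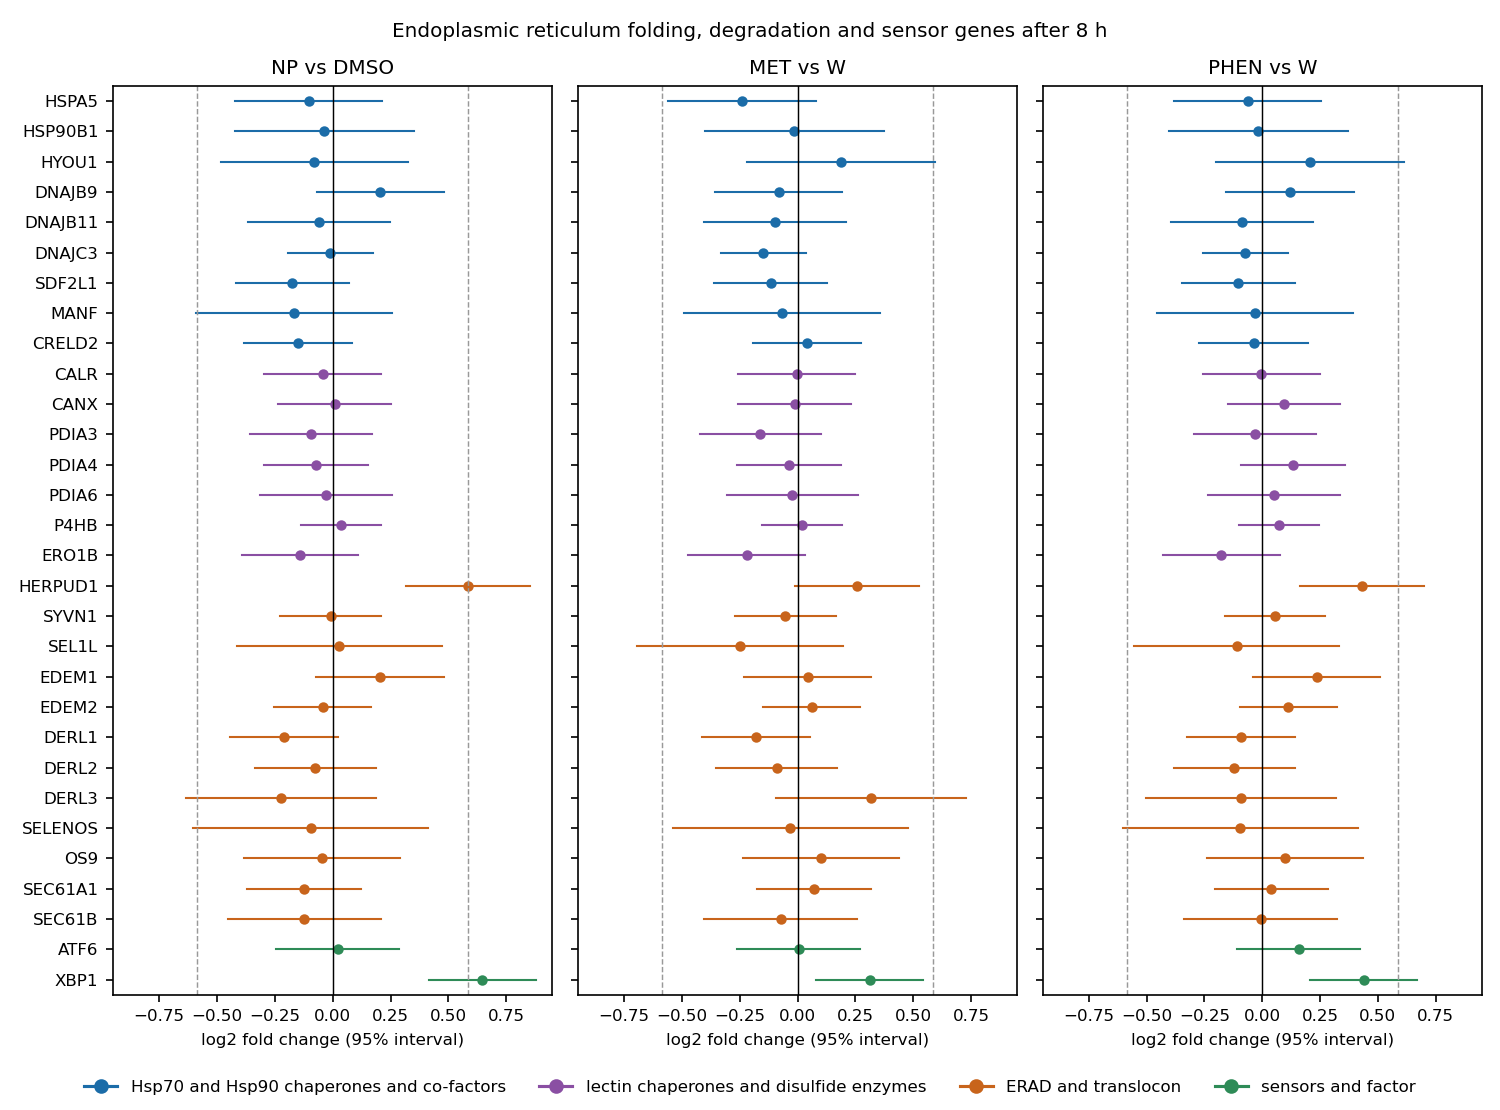
Log2 fold change (x axis) of 30 genes (y axis, coloured by role group) after NP, MET or PHEN against the own vehicle; points are limma estimates over 3 arrays a group, bars 95% intervals, and dashed lines 1.5-fold. XBP1 lies to the right in all panels, HERPUD1 in the NP and PHEN panels, and the other genes have intervals that include 0. ERN1, with intervals several times wider, is left out.

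Among the sensors and their factor, XBP1 was above its vehicle in every pair of arrays. In DMSO its values were 5.24, 5.03 and 5.14, and after NP they were 5.68, 5.83 and 5.84. All NP arrays lay above all DMSO arrays, and the 3 differences between arrays of the same number were 0.44, 0.81 and 0.70. The change was a log2 fold change of 0.65 ± 0.10 (SE, n = 3 per group; limma, adjusted p = 0.088), or 1.57-fold. With the replicate number as a block within each set of slides limma's adjusted p was 0.029, so that XBP1 then passed the test, as did 0.231% of all genes.

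In W the XBP1 values were 4.98, 5.23 and 5.22. After MET they were 5.28, 5.50 and 5.59, and after PHEN 5.50, 5.63 and 5.62. All MET and all PHEN arrays lay above all W arrays. XBP1 had a log2 fold change of 0.31 ± 0.10 after MET (SE, n = 3; limma, adjusted p = 1.00) and 0.44 ± 0.10 after PHEN (SE, n = 3; limma, adjusted p = 0.96). Of all genes, 3.41% had a larger log2 fold change than XBP1 after NP, 6.86% after MET and 0.682% after PHEN.

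The ATF6 mRNA, which encodes the sensor that acts as a transcription factor once cleaved, stayed near the vehicles. Its values were 3.44, 3.28 and 3.43 in DMSO and 3.32, 3.38 and 3.51 after NP. They were 3.10, 3.53 and 3.54 in W, 3.12, 3.46 and 3.61 after MET, and 3.46, 3.57 and 3.62 after PHEN. The groups overlapped in all comparisons. The log2 fold changes were 0.021, 0.0056 and 0.16 after NP, MET and PHEN, each with an SE of 0.12, and their 95% intervals reached from -0.26 to 0.42.

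ERN1, which encodes IRE1, could not be measured well. Its probe passed the background flag on 1 array of DMSO, 1 array of NP and all 9 arrays of the other set of slides. Its values were -5.53, -2.59 and -6.04 in DMSO and -5.26, 0.094 and -6.16 after NP, so that replicate 2 stood apart in both groups. They were -2.92, -4.46 and -4.70 in W, -3.56, -3.52 and -4.41 after MET, and -3.49, -4.17 and -4.68 after PHEN. The log2 fold changes of 0.94, 0.20 and -0.089 had an SE of 1.16. ERN1 is counted in the lists, and without it the medians of the members were -0.052, -0.027 and -0.0054.

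**Figure D2:**
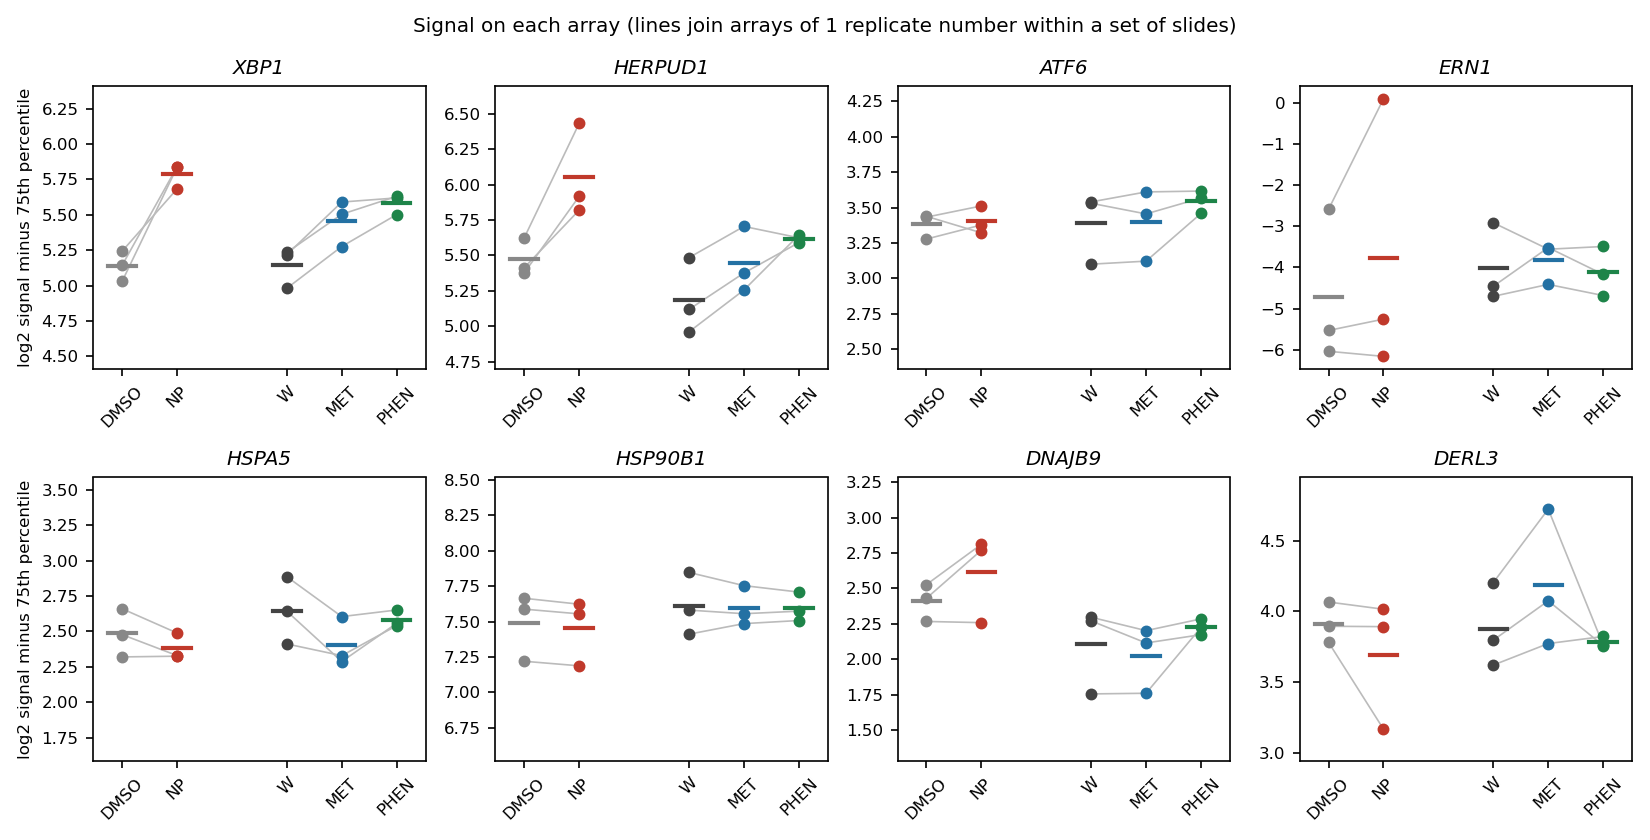
Log2 signal minus the 75th percentile (y axis) on each of the 15 arrays for 8 genes, with group means as bars; grey lines join arrays of the same number within a set of slides, and the y axes differ in position, and for ERN1 also in length. XBP1 and HERPUD1 step up from vehicle to compound, ATF6, HSPA5 and HSP90B1 do not, and ERN1 scatters over several log2 units in DMSO and NP.

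Among the ERAD and translocon genes, HERPUD1, which encodes a membrane protein of the ERAD ligase complex, was the highest of the group after NP and PHEN, and second to DERL3 after MET. Its values were 5.41, 5.38 and 5.62 in DMSO and 5.82, 5.92 and 6.43 after NP. All NP arrays lay above all DMSO arrays. For NP this was a log2 fold change of 0.58 ± 0.12 (SE, n = 3; limma, adjusted p = 0.24).

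HERPUD1 values in W were 4.96, 5.12 and 5.48. They were 5.26, 5.38 and 5.70 after MET and 5.64, 5.59 and 5.62 after PHEN. The PHEN arrays lay above all W arrays, and the MET arrays overlapped with W although each lay above the W array of its number. HERPUD1 had a log2 fold change of 0.26 ± 0.12 after MET (SE, n = 3; limma, adjusted p = 1.00) and 0.43 ± 0.12 after PHEN (SE, n = 3; limma, adjusted p = 1.00). The PHEN differences by pair were 0.68, 0.47 and 0.14, and the W arrays spread more widely than the PHEN arrays.

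None of the other 11 ERAD and translocon genes reached an unadjusted limma p of 0.05 in any comparison with the replicate number as a block over all arrays; with the block within each set of slides DERL1, SEL1L and EDEM1 did, as given above. The lectin-like gene EDEM1, which helps take misfolded glycoproteins to ERAD, had the next largest positive value after PHEN. Its values were -1.35, -1.12 and -1.26 in W and -1.06, -1.02 and -0.94 after PHEN, without overlap. EDEM1 had a log2 fold change of 0.24 ± 0.12 (SE, n = 3; limma, adjusted p = 1.00), and it was 0.20 after NP and 0.044 after MET. EDEM2, which starts the trimming of mannose, had log2 fold changes of -0.044, 0.062 and 0.11 after NP, MET and PHEN.

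The derlins are membrane proteins of the ERAD channel, and their log2 fold changes were below 0 in all comparisons but that of DERL3 after MET. DERL1 values were 1.41, 1.38 and 1.40 in DMSO and 1.21, 1.15 and 1.20 after NP. The NP arrays all lay below DMSO, and the log2 fold change was -0.21 ± 0.10 (SE, n = 3; limma, adjusted p = 1.00). DERL1 was also lower in each pair after MET and PHEN, with log2 fold changes of -0.18 and -0.092. DERL2 values were 4.50, 4.72 and 4.71 in W and 4.47, 4.56 and 4.54 after PHEN, a log2 fold change of -0.12, and the groups overlapped. It was -0.076 after NP and -0.090 after MET.

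DERL3 had the widest range of pair differences after NP (0.61) and after PHEN (0.64), ERN1 aside. Its values were 4.07, 3.89 and 3.78 in DMSO and 4.01, 3.89 and 3.17 after NP, a log2 fold change of -0.22 in which NP replicate 3 lay far below the other arrays. Without replicate 3 it was -0.027. They were 4.20, 3.80 and 3.62 in W, 4.72, 4.07 and 3.77 after MET, and 3.76, 3.76 and 3.82 after PHEN. MET was higher than W in each pair, but the groups overlapped, and the log2 fold change was 0.32 ± 0.18 (SE, n = 3; limma, adjusted p = 1.00). After PHEN it was -0.092. A second, dimmer DERL3 probe, above background on 6 arrays, had a log2 fold change of -0.098 after MET.

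SEL1L, the adaptor of the ERAD ligase SYVN1, had values of 1.19, 1.38 and 1.79 in W, 0.96, 1.12 and 1.53 after MET and 1.30, 1.26 and 1.47 after PHEN. It was lower than W in each MET pair, by -0.23, -0.26 and -0.26, while the groups overlapped. The log2 fold changes were -0.25 ± 0.20 after MET and -0.11 ± 0.20 after PHEN (SE, n = 3). Without replicate 3 they were -0.24 and -0.0069. The other SEL1L probes gave -0.13 and 0.023 after MET. SYVN1 itself differed by -0.0083, -0.052 and 0.055 after NP, MET and PHEN. SELENOS and OS9, which help recruit and select ERAD substrates, and the translocon subunits SEC61A1 and SEC61B lay between -0.12 and 0.10 in the 3 comparisons.

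Among the Hsp70 and Hsp90 chaperones and their co-factors, 0 of 9 genes reached an unadjusted limma p of 0.05 in any comparison with the replicate number as a block over all arrays. With the block within each set of slides CRELD2 and SDF2L1 did after NP and DNAJC3 and HSPA5 after MET, all lower. The medians of their log2 fold changes were -0.080 after NP, -0.082 after MET and -0.037 after PHEN. HSPA5 encodes BiP, the Hsp70 of the ER and a usual readout of ATF6. Its values were 2.66, 2.48 and 2.32 in DMSO and 2.49, 2.33 and 2.32 after NP. They were 2.41, 2.64 and 2.89 in W, 2.33, 2.29 and 2.60 after MET, and 2.54, 2.56 and 2.65 after PHEN. No compound group had a mean above that of its vehicle, and HSPA5 was lower than W in each MET pair. The log2 fold change after MET was -0.24 ± 0.14 (SE, n = 3; limma, adjusted p = 1.00), with a 95% interval from -0.56 to 0.078. After NP the interval was -0.42 to 0.21, and after PHEN -0.38 to 0.25, so that a 1.5-fold rise of HSPA5 lay outside all 3 intervals.

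HSP90B1, the Hsp90 of the ER (GRP94), had values of 7.66, 7.59 and 7.22 in DMSO and 7.62, 7.55 and 7.19 after NP. They were 7.41, 7.58 and 7.85 in W, 7.49, 7.56 and 7.75 after MET and 7.51, 7.57 and 7.71 after PHEN. Each compound array lay close to the vehicle array of its number, within 0.14. The 95% intervals of the fit with the block over all arrays reached from -0.42 to 0.37. A dimmer HSP90B1 probe gave -0.10, -0.22 and -0.12 after NP, MET and PHEN, each with an SE of 0.32.

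DNAJB9, an ER J-protein that is a usual target of spliced XBP1, had values of 2.27, 2.43 and 2.53 in DMSO and 2.26, 2.77 and 2.81 after NP. They were 1.75, 2.30 and 2.27 in W, 1.76, 2.20 and 2.11 after MET, and 2.22, 2.28 and 2.17 after PHEN. Replicates 2 and 3 of NP were above their DMSO arrays by 0.34 and 0.28, and replicate 1 was level with its own. DNAJB9 had a log2 fold change of 0.20 ± 0.12 after NP (SE, n = 3; limma, adjusted p = 1.00), -0.082 after MET and 0.12 after PHEN.

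SDF2L1, a co-factor of the BiP chaperone complex whose promoter holds ERSE-II as that of HERPUD1 does, had values of 6.86, 7.01 and 6.80 in DMSO and 6.75, 6.81 and 6.58 after NP. It was lower in each pair and the groups overlapped, with a log2 fold change of -0.18 ± 0.11 (SE, n = 3; limma, adjusted p = 1.00). The difference was -0.12 after MET and -0.10 after PHEN. CRELD2 and MANF, secreted ER stress proteins, were lower in each NP pair, with log2 fold changes of -0.15 and -0.17. HYOU1, the large Hsp70 that exchanges nucleotide on BiP, differed by -0.080, 0.19 and 0.21 after NP, MET and PHEN, and the J-proteins DNAJB11 and DNAJC3 lay between -0.15 and -0.011 in all comparisons.

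The lectin chaperones and disulfide enzymes lay close to the vehicles, and for all 7 measured genes the 95% interval stayed within 1.5-fold in each comparison. Calreticulin (CALR) differed by -0.044, -0.0033 and -0.0036 after NP, MET and PHEN, and calnexin (CANX) by 0.0084, -0.012 and 0.094. The protein disulfide isomerases PDIA3, PDIA4, PDIA6 and P4HB lay between -0.16 and 0.13. Dimmer second probes, above background on all 15 arrays, gave -0.040, -0.10 and -0.042 for CANX after NP, MET and PHEN. For the isomerase PDIA3 they gave -0.18, -0.019 and 0.054, and for P4HB -0.047, 0.17 and 0.15. The lowest member was ERO1B, an oxidase that recharges these enzymes. Its values were 0.0094, 0.051 and 0.48 in W, -0.080, -0.030 and -0.013 after MET, and 0.047, 0.0045 and -0.044 after PHEN. All MET arrays lay below all W arrays, but W replicate 3 was far above the other W arrays, so that the pair differences after MET were -0.090, -0.081 and -0.49. ERO1B had a log2 fold change of -0.22 ± 0.11 after MET (SE, n = 3; limma, adjusted p = 1.00) and -0.18 after PHEN. Without replicate 3 these were -0.085 and -0.0044.

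The members were also counted by their sign within pairs. After NP, 3 members (XBP1, HERPUD1 and EDEM1) were higher in all 3 pairs (14.1% of all genes were) and 10 were lower in all 3 (19.7%). After MET, 7 were higher (21.1%) and 10 lower (22.3%). After PHEN, 12 were higher (11.2%) and 5 lower (16.3%). After NP, 5 of the 9 Hsp70 and Hsp90 chaperones and co-factors were among the lower ones. After PHEN, 4 of the 7 lectin and disulfide genes (CANX, PDIA4, PDIA6 and P4HB) were among the higher ones, by 0.051 to 0.13.

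Members with and without these promoter elements overlapped in their values. After NP, the 11 measured genes with ERSE or ERSE-II had a median log2 fold change of -0.044 and the 17 without had -0.044. After MET the medians were -0.012 and -0.038, and after PHEN -0.0036 and 0.040. Among the 11, XBP1 and HERPUD1 were the highest 2 in each comparison. The other 9, HSPA5 and HSP90B1 included, ranged from -0.18 to 0.0084 after NP, from -0.24 to 0.19 after MET and from -0.18 to 0.21 after PHEN.

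The compounds were also compared with each other, at the doses of the study, which differ. The effect of NP minus that of MET, the effect of NP minus that of PHEN, and PHEN against MET, biguanides that differ in a phenylethyl chain against dimethyl groups, were each tested with limma. No member passed in any of these tests, and 0% of all genes did. For XBP1 the NP effect was larger than the MET effect by 0.33 (95% interval 0.0085 to 0.66; limma, adjusted p = 1.00), the 1 difference of a member with an unadjusted p of at most 0.05 in these tests. Many genes outside the list also reached that unadjusted level in each of these tests. The level therefore does not by itself set XBP1 apart. The NP effect on XBP1 was larger than the PHEN effect by 0.21 (interval -0.12 to 0.53), and PHEN was above MET by 0.13 (interval -0.10 to 0.36). For HERPUD1 these 3 differences were 0.33 (-0.053 to 0.71), 0.15 (-0.23 to 0.53) and 0.17 (-0.095 to 0.44). For DERL3, PHEN was below MET by a log2 difference of -0.41 (interval -0.82 to 0.0023; limma, adjusted p = 1.00).

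The vehicles themselves differed for some members. Between DMSO and W, 3 members passed the test (CANX at -0.77, CRELD2 at -0.59 and SEL1L at 0.70 on the log2 scale, DMSO minus W), as did 10.7% of all genes. The solvent and the slides cannot be told apart in this difference. The comparisons above are therefore those with the own vehicle on the same slides.

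A further 49 genes of ER folding, translocation and ERAD, such as the ATPase VCP, the KDEL receptors and the signal peptidase subunits, were described as a list, and 47 of them were measured. None passed the test, against 0.0373%, 0% and 0.0261% of all genes after NP, MET and PHEN. At an unadjusted limma p of at most 0.05, 0 were higher and 1 lower after NP, 1 higher and 0 lower after MET, and 0 after PHEN. Of all genes, 2.78% were higher and 2.01% lower after NP, 1.28% and 1.25% after MET, and 0.76% and 1.66% after PHEN. Their median log2 fold changes were -0.037, -0.033 and 0.0016, and all values lay between -0.37 and 0.28.

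The ATF4 branch, described by 12 genes, had higher values. Kinases other than PERK also raise ATF4, and the activity of PERK was not measured. These genes therefore do not single out the PERK arm of the UPR. The median log2 fold change of the 12 genes was 1.07 after NP, 0.71 after MET and 0.76 after PHEN. The test was passed by 3 of the 12 after NP (TRIB3, SESN2 and NUPR1), 0 after MET and 4 after PHEN (CHAC1, ASNS, SESN2 and NUPR1), all upward. Of all genes 0.0373%, 0% and 0.0261% passed. At an unadjusted limma p of at most 0.05, 10, 9 and 10 were higher, against 2.78%, 1.28% and 0.76% of all genes. None was lower, against 2.01%, 1.25% and 1.66%. DDIT3, which encodes the factor CHOP, had log2 fold changes of 1.04, 0.68 and 0.62 after NP, MET and PHEN, each ± 0.22 (SE, n = 3). TRIB3, a pseudokinase induced by ATF4 and CHOP, had 1.00, 0.53 and 0.70, each ± 0.13. EIF2AK3, which encodes the sensor PERK itself, differed by 0.045, -0.22 and -0.13. The 12 genes were listed with earlier results of these arrays known, so that the counts are a description.

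**Figure D3:**
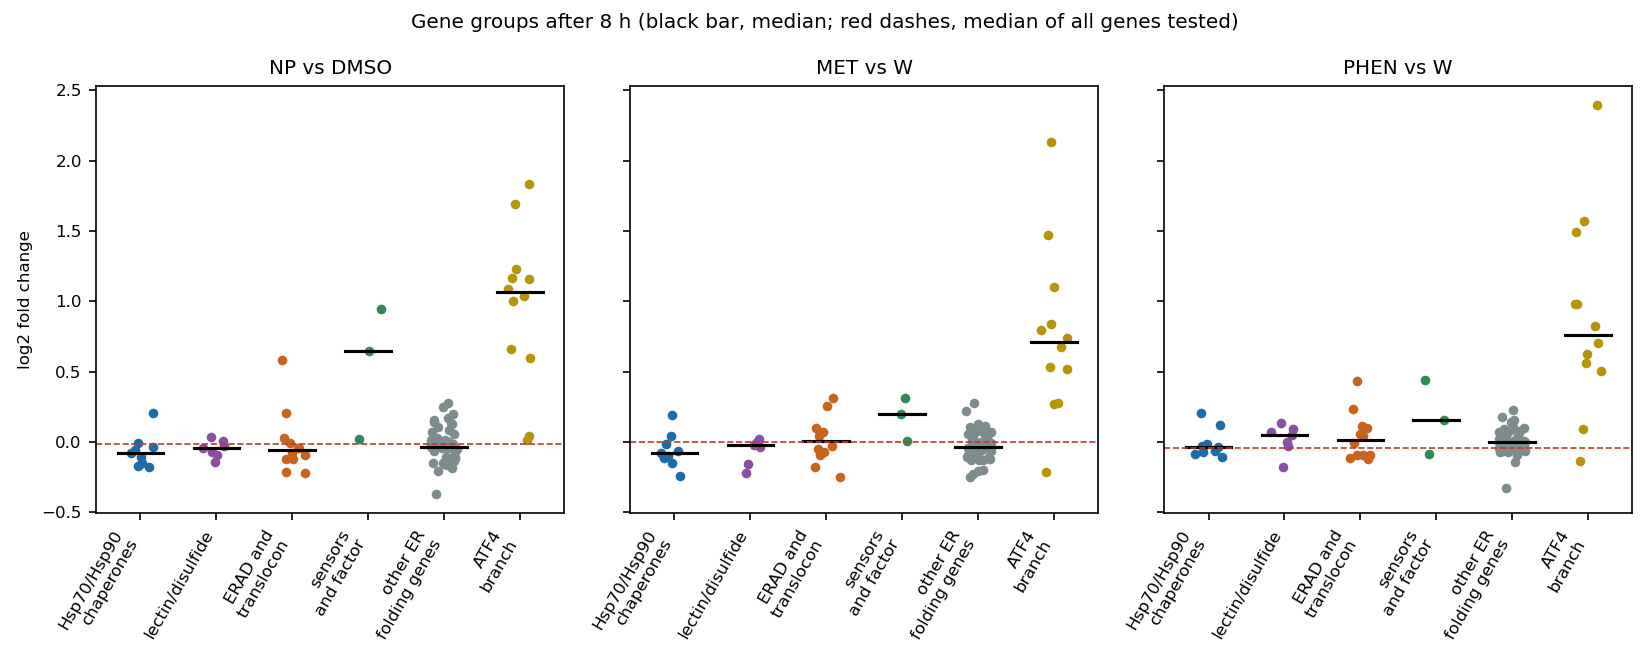
Log2 fold change (y axis) of each measured gene in the 4 role groups, the 47 other ER folding genes and the 12 genes of the ATF4 branch (x axis) after NP, MET or PHEN against the own vehicle; black bars are group medians and the red dashed line is the median of all genes tested. The chaperone, ERAD and other folding groups sit around 0, with HERPUD1 as the highest ERAD point after NP and PHEN, and the ATF4 branch has medians of 1.07, 0.71 and 0.76.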

How the data were processed

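The authors extracted total RNA, labelled it with Cy3, hybridized 15 Agilent arrays and deposited the intensity of each spot from Feature Extraction, background-subtracted and detrended but not normalized between arrays. The files' headers give version 10.7.3.1, and the submitters' processing notes 9.1. The authors also deposited a table of log2 values, which matched log2 of those intensities plus 1 offset per array, floored at 4; it served as an alternative.

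Control spots were removed, outlier spots set to missing (260 of 493695 values after selection), spots of a probe averaged, and the 75th percentile of each array over its spots subtracted. Of 58201 probes, 32913 were well above background on all 3 arrays of a group. Probes were named through RefSeq accessions (GRCh38.p14 table; 31104 of 33080 matched), the brightest probe stood for a gene (6 members had several), and features with at least 8 values were kept. A linear model of the 5 groups with the replicate number as a block was fitted over 15 arrays. It used limma 3.58.1 in R 4.3.3 (two-sided, Benjamini-Hochberg over 26825 features). The authors paired replicates in t-tests of treatment against control, whereas this block also joins arrays of the same number across the sets of slides. The fit was tested on simulated arrays with a replicate effect shared by all groups and none of the slides. That test therefore does not cover pairing within a set of slides. Python 3.11.15, pandas 2.3.3, numpy 2.4.6, scipy 1.17.1 and matplotlib 3.10.9 were used for counts and plots. The labels state independent experiments, without tying numbers across groups.

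Same-numbered arrays deviated together within a set of slides (correlation 0.22 to 0.86) but not across sets (-0.19 to 0.23). Arrays of different numbers within a set had correlations of -0.78 to 0.29. For DMSO and NP, the same-numbered pairs 1 and 2 had 0.31 and 0.33. The crossed pairs, DMSO 1 with NP 2 and DMSO 2 with NP 1, were close to these at 0.24 and 0.29. The members and lists were chosen with earlier results of these data known. Values by array are given for XBP1, ATF6, ERN1, HSPA5, HSP90B1, DNAJB9, HERPUD1 and the 3 largest rises and falls in each comparison with the own vehicle. Other settings tried were a fit without the replicate block, a term for the slide, the block within each set of slides or in only that set, normexp (offset 50, on the median spot signal), quantile normalization, the authors' table, filters on dim probes, the mean of a gene's probes, the methods' paired test, each replicate left out, and DMSO as the comparator of the biguanides.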

Additional observations from a re-analysis of the deposited data

How the results depend on the processing

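None of the 31 members passed the test in MET against W or PHEN against W under any alternative with the own vehicle, the replicate block or the paired test included. Few genes passed at all. With an adjusted p, at most 1 of 26825 was called up and 1 down after MET, and at most 12 up and 3 down after PHEN. The methods' paired test without adjustment called 101 up and 18 down after MET, and 42 up and 116 down after PHEN. In NP against DMSO, 1 member, XBP1, passed with a term for the slide added to the replicate block (0.253% of all genes did). It also passed with the replicate block within each set of slides (0.231%) and with quantile normalization (0.0634%). The same held among probes well above background on all 15 arrays (0.133%), and with the methods' paired test without adjustment (0.813%). In the other alternatives, no replicate block included, 0 members passed, and 0% to 0.0969% of all genes did. The log2 fold change of XBP1 was 0.65, and 0.68 with quantile normalization. Leaving out replicate 1, 2 or 3 left 0 members called in each comparison, and also 0 of all genes. The medians of the members were then -0.076 to -0.021 after NP, -0.041 to -0.0094 after MET and -0.0085 to 0.035 after PHEN. The PHEN median was 0.054 with quantile normalization. With DMSO in place of W, 4 members (12.9%) were called after MET and 3 (9.68%) after PHEN, against 17.0% and 10.2% of all genes. The medians were then 0.19 and 0.16, and those of all genes 0.14 and 0.083; solvent and slides cannot be told apart there.

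Signs changed for small differences, for ERN1, and with DMSO as the comparator. ATF6 after NP was -0.0098 with normexp and from -0.019 to 0.089 with a replicate left out (below 0 without replicate 2 or 3), and after MET -0.020 with normexp and from -0.027 to 0.046 (below 0 without replicate 1 or 3). With a replicate left out, ERN1 was -0.18 (without replicate 2) to 0.62 after MET and -0.28 to 0.15 (without replicate 1) after PHEN, where it was 0.15 with quantile normalization and 0.60 against DMSO. HSP90B1 after MET was -0.059 to 0.025 with a replicate left out (above 0 without replicate 3) and 0.11 against DMSO, and after PHEN -0.073 to 0.044 (above 0 without replicate 3), 0.054 with quantile normalization and 0.11 against DMSO. After PHEN, HSPA5 was -0.16 to 0.022 (above 0 without replicate 3) and 0.097 against DMSO, DNAJB9 -0.055 (without replicate 1) to 0.23 and -0.18 against DMSO, and EDEM1 -0.15 against DMSO. HERPUD1 after MET was -0.026 against DMSO. XBP1 and HERPUD1 kept a positive sign in every other alternative. The cause of these changes was not tested. ERN1 was the 1 member not well above background on all arrays.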
